A study of Homo sapiens with 6 samples.

Results

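EoL-1 is an established human line of eosinophilic leukaemia cells. The transcriptome described here is that of the unmodified line: the 3 libraries labelled wild type, chosen by that label from the 6 libraries of the series. The other 3 come from CRISPR/Cas9-made ATF3 knockout cells and were not used. The wild-type cells were grown in RPMI 1640 with 10% fetal bovine serum, and the labels name no further agent for them. Polyadenylated RNA was made into libraries with the Illumina Stranded mRNA Prep kit. The labels do not say whether the 3 replicates were separate cultures, so the spread between them may be technical. In all sentences with 3 values, these are those of replicates 1, 2 and 3 in that order.

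Eosinophils are granulocytes that develop from myeloid progenitors under the transcription factors C/EBP and GATA-1 and under interleukin-5. Mature cells store peroxidase, major basic protein and the ribonucleases EDN and ECP in their granules. EoL-1 is known for a fusion of FIP1L1 to PDGFRA, a constitutively active tyrosine kinase that drives the cells' growth, and it is commonly described as an immature line that acquires eosinophil features after differentiation agents. The levels below are given as TPM, which are scaled by transcript length so that genes can be compared. The comparison fails for genes with very short transcripts, as described below. Where RPM are given, they are the estimated reads scaled only to the same total of gene reads in each library, without the length, and are compared only between libraries.

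The libraries held 29126474, 30027410 and 29183205 estimated reads. A gene counted as detected at a mean of at least 1 TPM. By that rule 11304 of 35052 genes were detected, which is 32.2%, and 10535 of 19801 protein-coding genes, which is 53.2%. The share of 53.2% is the background for all counts of detected list members below. The median level of a detected gene was 15.4 TPM and 1055 genes reached 100 TPM. Of 14870 pseudogenes, 758 were detected.

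The most abundant transcripts came from the mitochondrial genome and from the translation machinery. EEF1A1, the elongation factor that delivers aminoacyl-tRNA to the ribosome (chr6:73515750-73523797, GRCh38), stood at 24663 ± 353 TPM (SD, n = 3) and took 3.31% of all reads, more than any other gene. EEF2, the translocation factor of elongation, was at 6653 ± 532 TPM. Both are among the 20 genes with the highest mean TPM, which also hold the cytochrome oxidase subunits MT-CO1, MT-CO2 and MT-CO3 and 10 ribosomal protein genes. The most abundant of these were RPL41 at 8052 ± 225 TPM and RPS3 at 7754 ± 206 TPM. Together the 20 genes held 24.1% ± 0.256 of TPM (SD, n = 3) but 9.34% ± 0.153 of the reads.

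The gap between those shares lies in very short transcripts. MT-ATP8, a small subunit of mitochondrial ATP synthase, was listed first at 48763 ± 1280 TPM with 0.0532% of the reads. Its effective length, the number of positions a fragment could start from, is given as 9.77 bases, against 1200 bases for EEF1A1, so a single read adds far more TPM. The pseudogenes RPS28P7 (33551 ± 767 TPM), RPL39P3 (16516 ± 598 TPM) and ENSG00000219928 (7635 ± 297 TPM) have effective lengths of 10.2, 5.47 and 6.55 bases and took 0.0382%, 0.0101% and 0.00559% of the reads. Transcripts with an effective length under 100 bases held 20.6% ± 0.153 of TPM and 0.447% of the reads. When transcripts of at most 300 bases were left out, EEF1A1 led at 30347 ± 397 TPM, MT-CO2 followed at 10662 ± 427 TPM, and no pseudogene remained among the first 20. By reads alone EEF1A1, MT-CO1, EEF2, PABPC1 and RPS6 ranked highest, and 10 genes were shared by the top 20 of both orders.

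**Figure D1:**
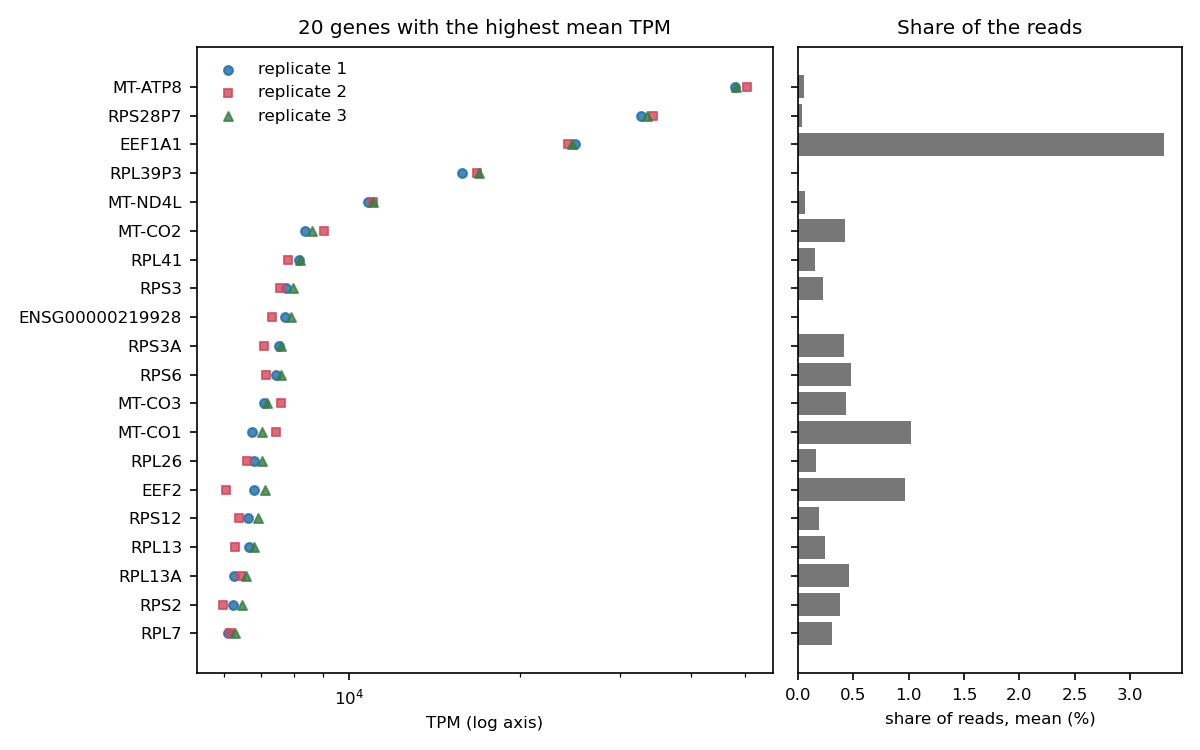
TPM of the 20 genes with the highest mean TPM in each of the 3 wild-type libraries (left, log axis; 1 symbol per library) and the mean share of estimated reads of the same genes (right, percent). EEF1A1 held 3.31% of the reads, while MT-ATP8, with the highest TPM, held 0.0532%.

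As a class, the 84 cytosolic ribosomal protein genes held 25.7% ± 0.487 of TPM and 11.5% of the reads, and 81 of them were detected. No ribosomal protein gene with enough reads differed 2-fold between the libraries, and their median ratio of highest to lowest library was 1.05. The 13 protein-coding genes of the mitochondrial genome held 10.6% ± 0.238 of TPM and 3.58% of the reads, from MT-ND6 at 124 TPM up to MT-ATP8. The 15 genes of a translation elongation list held 5.70% ± 0.139 of TPM. RACK1, a scaffold on the small ribosomal subunit, and TPT1, the translationally controlled tumour protein, were among them, at 3200, 2951 and 3277 TPM for RACK1 and 5611, 5361 and 5747 TPM for TPT1. Other protein-coding genes made up 43.6% ± 0.455 of TPM and 74.0% of the reads.

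Among genes outside those classes, the actin gene ACTB was highest, at 2611, 2807 and 2759 TPM, followed by HNRNPA1, an RNA-binding protein of splicing, at 2591, 2534 and 2612 TPM. The iron-storage subunit FTL stood at 1525, 1628 and 1591 TPM, and the glycolytic enzymes GAPDH and ENO1 at 2416 and 1366 TPM on average. These values stayed close between libraries. Argininosuccinate synthase, ASS1, an enzyme on the route from citrulline to arginine, stood at 1678, 1280 and 1840 TPM, and its replicate 2 value was the lowest. PRSS57, a serine protease of neutrophil granules, was at 747, 779 and 705 TPM. PRDX1, a peroxide-reducing enzyme, varied more, at 673, 966 and 525 TPM.

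The labelled cell type is eosinophil. Of 20 eosinophil markers, 4 were detected, which is 20.0% against 53.2% of all protein-coding genes. RNASE2, the granule ribonuclease EDN (chr14:20955452-20956436), was at 53.4, 73.7 and 69.0 TPM. RNASE3, its near copy ECP, was at 12.4, 19.3 and 15.3 TPM. OLIG2, a transcription factor of developing eosinophils, was at 11.3, 8.13 and 9.59 TPM, and the purinergic receptor P2RY2 at 18.4, 17.9 and 26.0 TPM. RNASE2 and RNASE3 are paralogs of close sequence, and reads between them may be misassigned. The other defining genes were at or near 0. Eosinophil peroxidase EPX, PRG3, CLC, IL5RA, the receptor for interleukin-5, and GATA1 had no read in any library. PRG2, the major basic protein, had 0.187, 0 and 0.142 TPM. SIGLEC8, CCR3 and ADORA3 were at means of 0.0347, 0.0621 and 0.0597 TPM, and CEBPE, a late granulocyte factor, at 0.203 TPM. At this depth 3 reads, the number that a count of 0 allows, correspond to 0.0375 TPM of EPX and 0.0654 TPM of IL5RA in replicate 1; such limits cover counting error only. Most of the defining markers thus go against the labelled cell type, and the libraries are called wild-type EoL-1 here. In bulk RNA, fewer cells of a type and less RNA per cell cannot be told apart.

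Of 11 neutrophil primary-granule markers 6 were detected, 54.5%, close to the 53.2% of all protein-coding genes. CD63, a granule membrane tetraspanin, was at 127, 167 and 164 TPM. SRGN, the proteoglycan that packs granule proteins, was at 144, 138 and 118 TPM. MPO, myeloperoxidase, was at 12.8, 22.1 and 13.7 TPM, and cathepsin G, CTSG, at 12.6, 8.14 and 21.1 TPM. The neighbouring proteases ELANE, PRTN3 and AZU1, and the defensin DEFA4, had no reads, although the transcript table holds only 1 of the 2 GENCODE transcripts of each of the 3 proteases. Late neutrophil markers were rarer: 7 of 19 were detected (36.8%), of which only S100A8, S100A9, S100A12 and CSF3R averaged at least 10 TPM. S100A8 was at 16.8, 125 and 9.09 TPM, S100A9 at 11.2, 110 and 6.35 TPM and S100A12 at 3.41, 25.6 and 1.04 TPM. The means of S100A9 and S100A12 reached 10 TPM only through replicate 2. CSF3R, the G-CSF receptor, stood at 14.7, 9.16 and 10.7 TPM, whereas LTF, LCN2 and CEACAM6, proteins of specific granules and the neutrophil surface, had no reads.

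Monocyte and macrophage markers were detected in 9 of 22 cases, which is 40.9% against 53.2% of all protein-coding genes. TYROBP, an adaptor of activating myeloid receptors, was at 93.7, 137 and 76.7 TPM. TLR2 was at 84.1, 62.5 and 73.4 TPM, the chemokine receptor CCR2 at 45.2, 62.4 and 70.4 TPM, and the lysosomal CD68 at 41.3 ± 2.34 TPM (SD, n = 3). CSF1R, the M-CSF receptor, was at 12.4, 28.3 and 15.4 TPM. The defining surface genes of macrophages were low: CD14 had 0.283, 0.127 and 0.145 TPM, CD163 stayed under 1 TPM, and FCGR3A had no reads. Of 13 dendritic cell markers 6 were detected (46.2%), also under the share of all protein-coding genes. CLEC10A and CD1C, markers of conventional dendritic cells, reached 8.88 and 2.68 TPM in replicate 2 alone, against at most 0.913 and 0.338 TPM in the others.

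Of 16 stem and progenitor cell markers 5 were detected, which is 31.25% against 53.2% of all protein-coding genes. The summed TPM of the list was 478, 509 and 465. LMO2 (145, 155 and 139 TPM) and MYB (143, 152 and 136 TPM) are transcription regulators of blood progenitors. HOXA9 stood at 81.7, 74.3 and 77.6 TPM and HOXA10 at 28.2, 26.7 and 29.6 TPM, with MEIS1, their partner, at a mean under 1 TPM. FLT3, a receptor kinase of progenitors, was at 80.1, 101 and 81.5 TPM, summed over its transcripts. Of its reads, 33.2% on average were assigned to ENST00000380987.2, a transcript annotated as a target of nonsense-mediated decay. The protein-coding ENST00000241453.11 was at 53.9, 58.2 and 44.5 TPM. CD34 and KIT, surface markers of early progenitors, were at 0.0895, 0.123 and 0.0666 TPM and at 0.0625, 0.109 and 0.194 TPM. None of the 5 detected members differed 2-fold between the libraries, and their median ratio of highest to lowest library was 1.11.

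Markers of the other lineages were mostly absent. In the lists of mast cells and basophils, erythroid cells, megakaryocytes and platelets, and endothelial, stromal and epithelial cells, 1 member each was detected: GATA2, EPOR, NFE2 and ACTA2. GATA2 averaged only 1.09 TPM and was highest in replicate 3, with a ratio of highest to lowest library of 5.35. At a cut of 2 TPM no mast cell or basophil marker was detected. Among 18 T and NK genes 5 were detected (27.8%). The highest was NKG7, a granule protein of cytotoxic lymphocytes and also of some myeloid cells, at 185, 209 and 170 TPM. CD3D and CD3E had no reads, and CD3G stayed under 1 TPM. B cell genes were low, with EBF1 at 7.63, 8.25 and 5.83 TPM and CD79A at 6.76, 7.51 and 4.92 TPM, while MS4A1 had no reads and PAX5 averaged under 1 TPM. Over all 12 marker lists, 49 of 187 genes in the table were detected, which is 26.2% against 53.2% of all protein-coding genes.

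**Figure D2:**
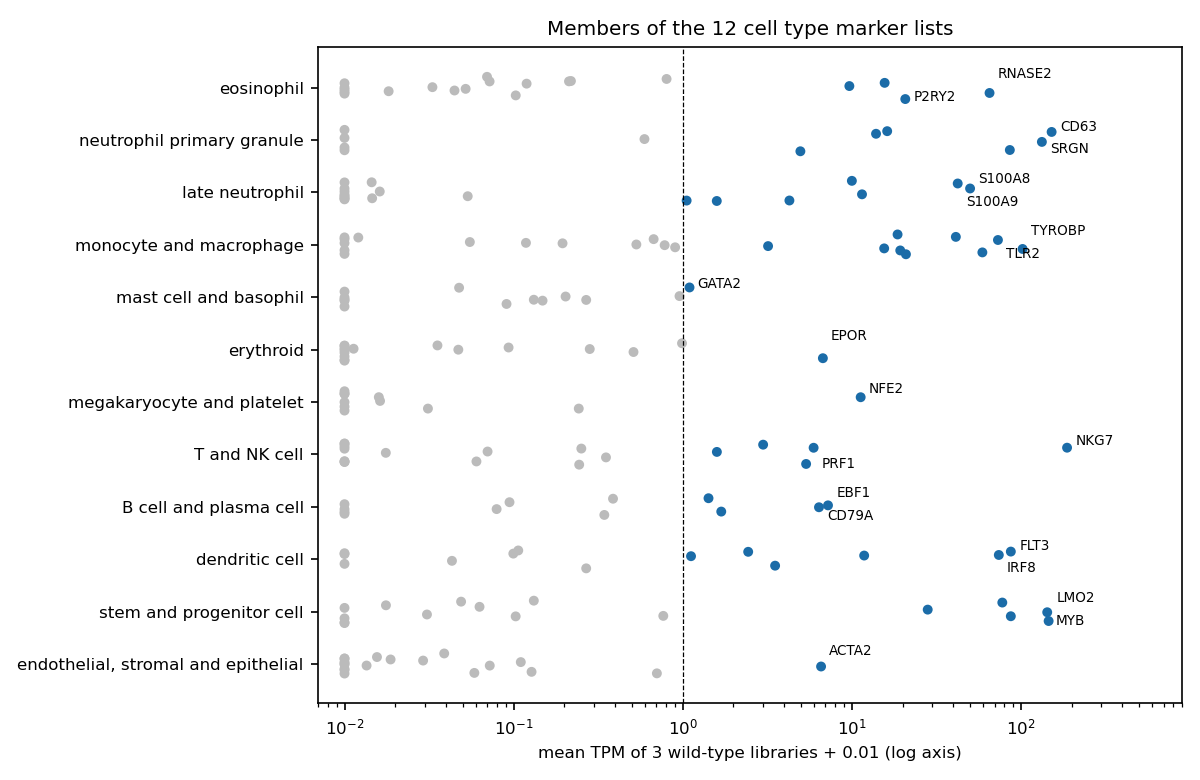
Mean TPM of each member of the 12 cell type marker lists (log axis with 0.01 added; 1 point per gene, blue when at least 1 TPM; the dashed line marks 1 TPM). In most lists the greater part of the members lies under 1 TPM; the highest single members are NKG7 at 188 TPM and CD63 at 152 TPM, and the highest of the eosinophil list is RNASE2 at 65.4 TPM.

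One stretch of the genome is poorly represented in the table. In the major histocompatibility region on chromosome 6, 77 of 164 protein-coding genes had no reads, which is 47.0%, against 22.5% of the genes elsewhere. HLA-DRA, for example, is listed at 0, 0.214 and 0.241 TPM and TUBB, a tubulin of all cells, at 0, 0 and 1.14 TPM, while CD74, the invariant chain that accompanies MHC class II, was at 428, 617 and 429 TPM. Genes of that region are therefore only said to be listed at 0.

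Of 32 myeloid transcription factors 23 were detected: SPI1, the factor PU.1 of all myeloid cells, at 144, 151 and 144 TPM, XBP1, a factor of the secretory stress response, at 454, 398 and 403 TPM, CEBPA at 92.3, 94.6 and 112 TPM, and RUNX1 at 86.9, 75.3 and 81.7 TPM. IRF8, which favours monocytes and dendritic cells over granulocytes, was at 56.0, 101 and 66.1 TPM. Among the receptors for eosinophil growth factors, CSF2RA and IL3RA were present at 22.1, 22.3 and 19.5 TPM and at 9.69, 9.33 and 9.89 TPM, and their shared beta chain CSF2RB at 7.31, 8.01 and 5.86 TPM. In total 24 of 31 cytokine receptors were detected (77.4%), with FLT3 the highest.

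The genes of the fusion named above were measured as separate genes. FIP1L1, an RNA 3' end processing factor, was at 44.8, 37.2 and 32.6 TPM. PDGFRA, the receptor kinase, was at 8.95, 8.42 and 8.77 TPM, and 99.1% of its reads were assigned to the transcript ENST00000257290.10, which is 6378 bases long. A transcript table of this kind holds no fusion transcripts, so the reads of a fusion would fall on its parts, and the share of fused RNA was not measured. CHIC2, which lies between the pair, stayed at 7.94, 7.16 and 7.71 TPM. Genes known as targets of STAT5, a factor that relays signals of such kinases, differed widely in level: PIM1 was at 570, 480 and 590 TPM, CISH at 98.4, 81.1 and 102 TPM and CCND2 at 1.40, 1.66 and 3.73 TPM. Of 22 genes of the locus and the STAT5 axis 19 were detected, with a median of 22.6 TPM over the list, while KIT, LNX1 and GSX2 of the same stretch of chromosome 4 were not.

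Surface and effector genes of leukocytes were widely expressed. Of 29 adhesion and surface genes 25 were detected, led by ITGAL (344, 362 and 349 TPM), the integrin of T cells and myeloid cells, CD44 (220, 200 and 188 TPM) and ITGA4 (151, 154 and 127 TPM), which binds VCAM-1 in eosinophil recruitment. All 8 genes of the phagocyte NADPH oxidase were detected, led by CYBA, the membrane subunit, at 469, 540 and 466 TPM. NCF1 at 3.31, 7.27 and 3.73 TPM has near-identical pseudogenes and is uncertain. In the leukotriene pathway ALOX5AP, the activating protein of 5-lipoxygenase, was at 124, 137 and 114 TPM, LTA4H was at 35.4, 39.1 and 37.7 TPM, and LTC4S, the cysteinyl leukotriene synthase of eosinophils, only at 0.562, 1.15 and 1.47 TPM. ALOX5 itself is listed at 0, with 2 of its 8 GENCODE transcripts in the table.

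Of 34 cytokines and chemokines measured, 15 were detected, which is 44.1% against 53.2% of all protein-coding genes. MIF (247, 240 and 237 TPM) and CCL2 (169, 171 and 132 TPM), a chemokine for monocytes, were the highest. TNF is listed at 36.9, 38.6 and 31.1 TPM, but it lies in the poorly represented major histocompatibility region, so its level is uncertain. IL5, IL13 and CCL11, signals of type 2 inflammation, averaged under 1 TPM. VEGFA (chr6:43770184-43786487), the main angiogenic growth factor, was at 262, 193 and 279 TPM, summed over all its transcripts. Some of these keep an intron, and ENST00000497139.5, ENST00000480614.1 and ENST00000476772.5 of that class took 22.02%, 11.52% and 9.17% of VEGFA reads on average. The protein-coding ENST00000372067.7 took 47.51%, so the sum overstates the protein-coding RNA of VEGFA. GRN and TGFB1 were at 114, 154 and 118 TPM and 120, 125 and 110 TPM. In all, 13 of 28 angiogenic factors were detected (46.4%), also under the share of all protein-coding genes, and VEGFC, FGF2, HGF and PDGFB were at 0. MMP2 was at 12.4, 24.6 and 18.3 TPM.

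Genes of cell division were nearly all present: 31 of 32 S phase and mitosis genes were detected, with PCNA at 166, 193 and 181 TPM and MKI67 at 26.6, 31.0 and 30.5 TPM. CCND1 alone of that list was at 0. Among inhibitors of the cell cycle, CDKN2A and CDKN2B had no reads, and CDKN1A was at 21.5, 38.2 and 28.0 TPM. Of 23 survival and death genes 22 were detected. The integrated stress response, in which ATF4 raises amino acid transport and synthesis, was widely represented: 28 of 32 genes were detected, with ATF4 at 467, 422 and 459 TPM, SLC7A5 at 456, 373 and 467 TPM and ASNS at 252, 233 and 238 TPM. ATF3, another factor of this response, was at 13.0, 8.25 and 13.5 TPM. Glycolysis (24 of 25), cholesterol synthesis (23 of 24), heme and iron (18 of 21) and cytoskeleton (19 of 20) lists were nearly all detected. Of the type I interferon genes 14 of 27 were detected (51.9%), close to the 53.2% of all protein-coding genes. Several of the lists overlap.

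The 3 libraries were close to each other. Of 10610 genes with a mean of at least 1 TPM and 50 reads, the median ratio of the highest to the lowest library was 1.17, and its 90th percentile was 1.55. Ratios are of TPM plus 0.5, and RPM are treated alike. At least 2-fold was reached by 383 genes in TPM, 3.61% of those measured, and by 263 genes in RPM, 2.48%. Genes that reached it on both scales numbered 216, 2.04%. The coefficient of variation beyond counting error had a median of 5.12%. Across these genes, the log2 TPM of the pairs of libraries correlated at r = 0.982 to 0.987. Replicate 2 stood apart in most of the 216 genes: it was the library farthest from the middle one in 129 of them (59.7%), against 39 for replicate 1 and 48 for replicate 3. Over all genes measured, most of which differ little, replicate 2 was likewise the farthest in TPM in 4497 of 10610 (42.4%), against 2952 and 3161. Without replicate 2, 64 of the 216 still differed 2-fold on both scales, against 138 without replicate 1 and 121 without replicate 3.

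**Figure D3:**
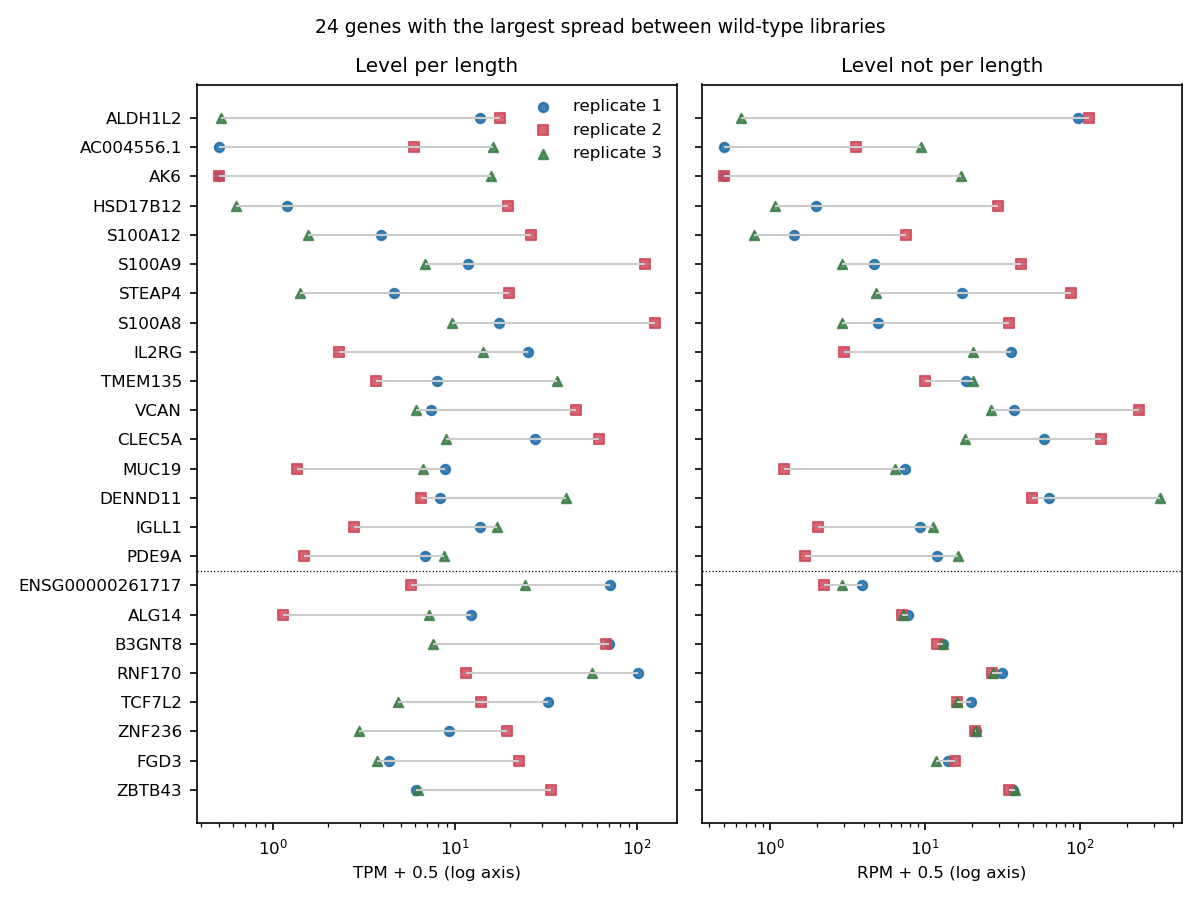
The 24 protein-coding genes with the largest ratio of highest to lowest library, as TPM + 0.5 (left) and RPM + 0.5 (right), both on log axes with 1 symbol per library. The 16 genes above the dotted line differed at least 2-fold on both scales, and the 8 below it did so in TPM only.

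Replicate 2 stood alone as the highest library in 80 of the genes (0.754% of those measured). S100A9 (chr1:153357854-153361027) and S100A8 (chr1:153390032-153391188), the pair of calcium-binding proteins that fill the neutrophil cytosol, were at 11.2, 110 and 6.35 TPM and at 16.8, 125 and 9.09 TPM. S100A12, their neighbour, was at 3.41, 25.6 and 1.04 TPM. All 3 genes were highest in replicate 2 and lowest in replicate 3. VCAN, a large matrix proteoglycan made by monocytes, was at 6.81, 45.8 and 5.54 TPM, and lysozyme, LYZ, at 44.5, 173 and 40.9 TPM. For LYZ this is 1820, 7377 and 1709 reads, so counting error is small beside the difference. CSF1R, TNFSF13 and STEAP4 also stood highest in replicate 2, with STEAP4, a metal reductase, at 4.12, 19.3 and 0.898 TPM. TNFSF10 was highest there too, but in RPM it counts as lowest in replicate 3 alone. The summed TPM was 52.4, 278 and 32.7 for the late neutrophil markers, 345, 517 and 361 for the primary granule markers, 325, 423 and 325 for the monocyte and macrophage markers and 150, 226 and 167 for the dendritic cell markers. It was 193, 228 and 194 for the T and NK cell markers. These sums run over all members of a list. By count, replicate 2 was above the mean of the others in 5 of 6 measured late neutrophil and 5 of 6 primary granule markers. It was so in 5 of 9 monocyte and macrophage, 4 of 6 dendritic cell and 4 of 5 T and NK cell markers, against 49.4% of all genes. CSF3R, CTSG and TLR2 of these lists were lowest in replicate 2. In the late neutrophil list the difference rests on S100A8, S100A9 and S100A12, and in the primary granule list mostly on LYZ. TYROBP and VCAN hold most of it in the monocyte and macrophage list, and IRF8 and FLT3 in the dendritic cell list. All 8 genes of the NADPH oxidase had enough reads, and 7 of them were above the mean of the other libraries in replicate 2, where 49.4% of all genes were. Their median difference was 0.38 on the log2 scale. LTF, LCN2, CEACAM6, ELANE, PRTN3, AZU1 and FCGR3A stayed at 0 in replicate 2. The part of other cell types in these differences was not tested.

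The S100A9 start is shown because that gene had one of the largest ratios between libraries, with its neighbours S100A8 and S100A12 highest in the same library. The 150 bases upstream of its RefSeq start (chr1:153357704-153357853, plus strand, GRCh38.p14) hold the letters TATAAA, in capitals, the core promoter motif bound by TBP. Its first base lies 29 bases before the start.
S100A9: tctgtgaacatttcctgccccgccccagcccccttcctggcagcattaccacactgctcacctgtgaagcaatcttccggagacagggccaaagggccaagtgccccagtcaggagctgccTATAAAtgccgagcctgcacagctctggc
The search covered both strands of the 250 bases before each start. Of 28 protein-coding genes over 5 TPM that were at least 2-fold on both scales, stood alone as highest in replicate 2 in reads and have a RefSeq start at hand, 8 (28.6%) held TATAAA, against 13.1% of all genes and 7.59% of detected genes with a start. These genes have more starts each: counted by start, 9 of 57 held it (15.8%), against 10.7% of all starts and 5.71% of those of detected genes. S100A8 held it at the same distance from one of its starts. The genes that held it include the neighbours S100A8, S100A9 and S100A12, which are related genes of one cluster. The set was chosen by its values in these libraries, and its cut of 5 TPM is higher than that of detected genes. The higher share is therefore no support for a part of the motif. A match of letters is a description and not a shown site.

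Replicate 2 stood alone as the lowest library in 49 genes (0.462%). IL2RG, the common gamma chain of several interleukin receptors, was at 24.6, 1.79 and 13.7 TPM. TRIB3, a pseudokinase induced by ATF4, was at 107, 42.4 and 111 TPM, or 220, 87.1 and 229 RPM. KLF2, a factor of quiescent leukocytes, was at 3.53, 0.438 and 3.11 TPM. The integrated stress response as a list was lower in replicate 2, by a smaller amount and more evenly: 2 of 28 measured members were above the mean of the others (1 in RPM), where 49.4% of all genes were. In replicates 1 and 3, 27 and 23 members were above, where 55.6% and 45.4% of all genes were. These counts are not separate from that of replicate 2, whose low values are in the mean that replicates 1 and 3 are compared with. The median difference of replicate 2 was -0.30 on the log2 scale. ATF5 was at 94.6, 55.7 and 96.9 TPM, DDIT4, an inhibitor of mTOR, at 270, 162 and 263 TPM, and DDIT3, the death-linked factor CHOP, at 38.0, 23.1 and 37.3 TPM. In these members replicates 1 and 3 lay together and replicate 2 below them. The summed TPM of the list was 4258, 3539 and 4176. No label gives a batch or date for the libraries, so what sets replicate 2 apart was not tested.

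**Figure D4:**
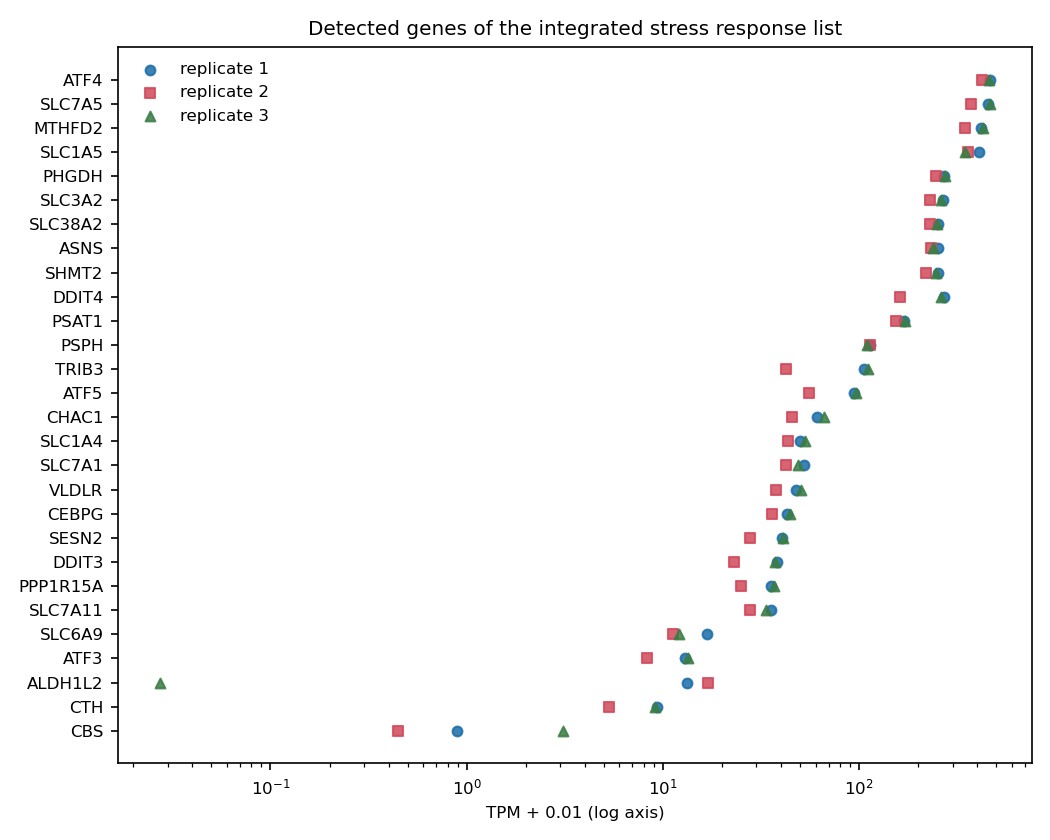
TPM of the 28 detected genes of the integrated stress response list in each wild-type library (log axis with 0.01 added; genes ordered by mean TPM). Replicate 2 is above the mean of the other libraries in 2 of 28 genes, and ALDH1L2 is the gene with replicate 3 near 0.

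CEBPG, a bZIP partner of ATF4, was at 43.0, 35.8 and 44.4 TPM and carries upstream of its start letters that ATF4 dimers are known to bind. The motif was searched as TGATGNAA on both strands and overlaps no match of the other motif there. It is in capitals in the 150 bases before a RefSeq start (chr19:33373963-33374112, plus strand, GRCh38.p14), with its first base 42 bases upstream.
CEBPG: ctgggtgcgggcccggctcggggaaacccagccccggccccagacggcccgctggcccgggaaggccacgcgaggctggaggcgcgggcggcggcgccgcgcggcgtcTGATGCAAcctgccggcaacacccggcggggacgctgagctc
Of the 27 list members with a RefSeq start in the table, 6 held this motif in the 250 bases before a start (22.2%), against 3.89% of all genes and 2.16% of detected genes. They were ATF3, ASNS, CHAC1, CEBPG, SLC1A5 and FGF21, of which FGF21 was not detected. The list holds many genes known as ATF4 targets, so a higher share follows from how it was chosen and is no support. A match says nothing of binding in these cells.

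**Figure D5:**
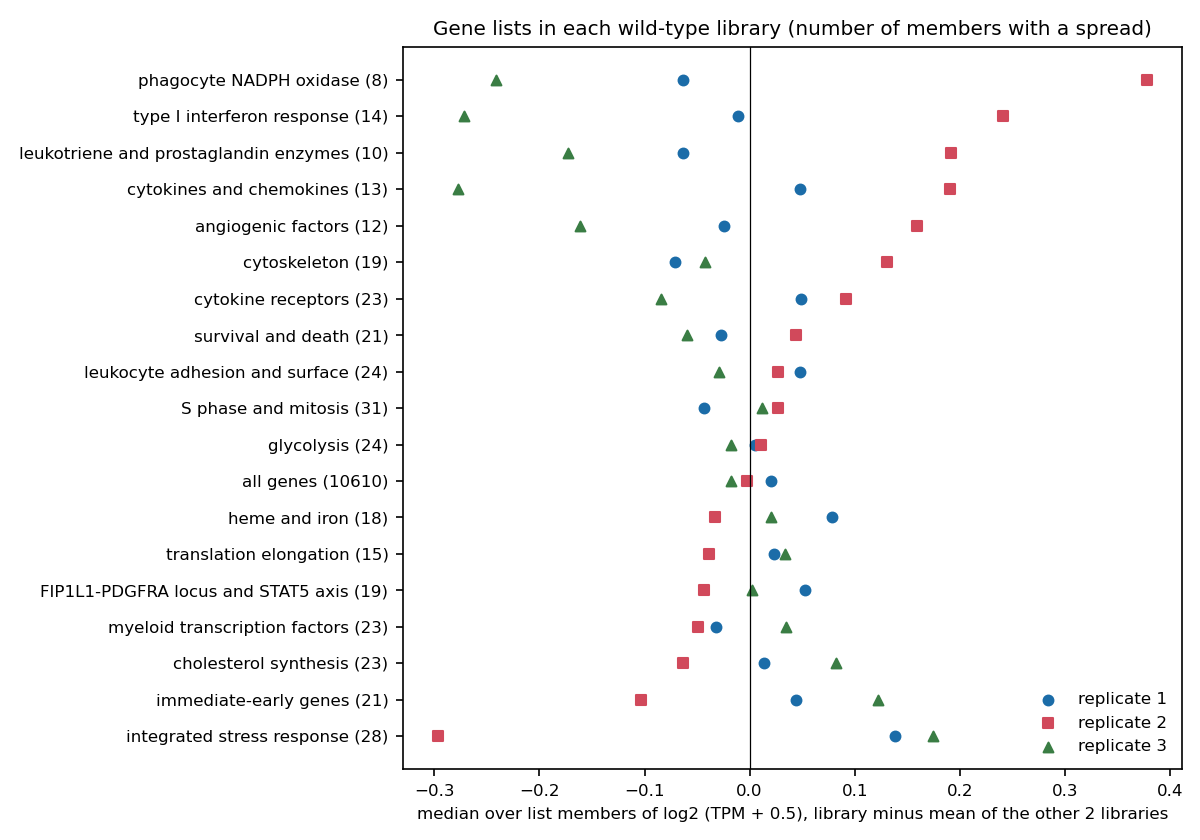
Median over the members of each functional gene list of log2 (TPM + 0.5) in a library minus the mean of the other 2 libraries, for the lists reported here with at least 5 measured members (number in brackets). Among the values of replicate 2, the highest is that of the NADPH oxidase list (0.38) and the lowest that of the integrated stress response list (-0.30), and all genes lie near 0.

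Replicate 3 stood alone as highest in 24 genes and as lowest in 24, 0.226% of those measured each. It was lowest for ALDH1L2, a mitochondrial folate enzyme that is part of the stress response list, at 13.2, 17.0 and 0.0172 TPM, the largest TPM ratio among the protein-coding genes over 5 TPM. Its main protein-coding transcript had 1824, 2498 and 0 reads. Replicate 3 was highest for DENND11 (7.70, 5.95 and 40.1 TPM, all from 1 transcript) and for AK6 (0, 0 and 15.2 TPM), which shares its locus with another gene and has 2 of its 5 transcripts in the table. CLEC5A, a myeloid lectin receptor, was at 26.9, 61.4 and 8.34 TPM. HSD17B12, an enzyme of fatty acid elongation, was highest in replicate 2, at 0.690, 18.9 and 0.121 TPM, with its transcript ENST00000278353.10 at 0, 686 and 0 reads. Replicate 1 stood alone as highest in 8 genes (0.0754%) and as lowest in 31 (0.292%), among them the adhesion molecule NCAM1, at 1.27, 8.44 and 6.40 TPM. The T and NK gene PRF1, perforin, was highest in replicate 3, at 3.01, 2.54 and 12.3 TPM.

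Not all large ratios in TPM were in the reads. Among 8445 protein-coding genes with a mean of at least 5 TPM, 210 reached 2-fold in TPM, 113 in RPM and 97 in both. B3GNT8, a glycosyltransferase, was at 69.5, 66.7 and 7.02 TPM but at 12.6, 11.4 and 12.5 RPM. Its 116-base transcript has an effective length of 3.92 bases, and about 8 reads there in replicates 1 and 2 and none in replicate 3 gave 63.0, 60.9 and 0 TPM. ZBTB43 was at 5.54, 33.3 and 5.72 TPM and 36.4, 34.1 and 37.6 RPM, and RNF170 at 101, 10.9 and 56.1 TPM and 31.0, 26.6 and 27.1 RPM. In such genes the TPM moved with the estimated mix of transcripts while the total of reads stayed close.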

How the data were processed

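Per the file headers, the authors deposited estimated counts of reads, TPM and lengths of transcripts for each library. The submitters' processing notes name Salmon 1.6.0, FastQC 0.11.9 and hg38. Library type and transcriptome release are not given there. From the 3 wild-type libraries, 177456 transcripts entered. Deposited TPM are scaled to the same total in each library by the authors' quantification. Of the deposited estimated counts above 0, 93.0% were not whole. Identifiers, version dropped, were joined to GENCODE 29 (167027 matched, 10429 not), and TPM and reads were summed over 35052 genes. RPM were computed here from the summed reads. Libraries were compared by log2((highest + 0.5)/(lowest + 0.5)), with Python 3.11.15, pandas 2.3.3, edgeR 4.0.16 and DESeq2 1.42.0 for alternative scalings. No test was made, since there is 1 group. The spread measure was tested on simulated counts of genes. These had no assignment of reads to transcripts, so ratios that move with the mix of transcripts were not covered. Members and lists were chosen with earlier results of these data known. Genes named are the 20 most abundant, up to 4 top, 4 undetected and 2 most variable members per list, the 24 most variable genes, the 6 per library that stand apart, and ATF3, PDGFRA, FIP1L1 and VEGFA. Other genes were chosen after their values were seen. Chromosome Y genes and XIST were left out, and some items that the rule names are not reported here. Reads can be misassigned among paralogs, pseudogenes and overlapping genes.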

Additional observations from a re-analysis of the deposited data

Results flagged for a closer look

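Reads assigned to transcripts without a GENCODE 29 gene are outside every comparison above. They made up 3.75% of the estimated reads in wild-type replicate 1, 3.75% in replicate 2 and 3.66% in replicate 3, over 10429 transcripts. Which genes these transcripts belong to was not analysed here.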

How the results depend on the processing

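The count of detected genes (11304) lay between 10364 and 13046 under all alternatives run, and the 49 detected markers between 42 and 60. The 383 genes with 2-fold TPM ratios were 380 with TMM and 381 with median-of-ratios scaling, 470 and 297 with pseudocounts of 0.1 and 1, 319 without transcripts of at most 300 bases, 263 in RPM and 216 on both scales. They were 218 at a mean of 5 TPM, 1082 without a filter, and 144 to 232 when a library was left out, with the lowest count without replicate 2; fewer libraries can only narrow a range. The share of TPM in the 20 most abundant genes (24.1%) was 20.7% without mitochondrial genes, 25.6% of the TPM of transcripts with a gene, 9.34% as reads and 17.8% without transcripts of at most 300 bases, the last added after seeing the data like the counts in RPM. Means of named genes can move far without a library, as for AK6, at 5.06 TPM with all libraries and 0 without replicate 3. No paired analysis was possible because the results come from 1 group and from no test. With 3 libraries of unknown origin, SDs are rough.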
